A study of Mus musculus with 8 samples.

Results

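Skin meets oxygen, light and peroxidised sebum, and its cells hold a layered system of enzymes against reactive oxygen. The transcription factor NRF2 is held in the cytosol by KEAP1 and degraded; when reactive molecules modify KEAP1, NRF2 enters the nucleus, pairs with small MAF proteins and binds antioxidant response elements of genes for glutathione synthesis, thioredoxin reduction and detoxification. Glutathione peroxidases and peroxiredoxins reduce peroxides, superoxide dismutases and catalase remove superoxide and hydrogen peroxide, and metallothioneins and ferritin hold the metals that would catalyse radical formation. The genes described are 36 named members of that system, measured in dorsal skin of mice fed a control or a collagen hydrolysate diet. They were listed by name and function, with no measured value in the rule, but with earlier results of these data known. A gene was taken as measured where at least 1 probe set of the array was annotated to its symbol and to no other, and the brightest of these, by its mean over the 8 arrays, represented it. That held for 32 of the 36 genes, out of 18193 genes with such a probe set in the whole series. *Prdx1* is named only by probe sets that carry a second symbol, and *Prdx5*, *Prdx6* and *G6pdx* were not analysed here. *Slc7a11* lay in the lowest 30% of genes by mean level and was left out of the fit, so 31 members were among the 12735 genes tested.

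Both groups share strain, sex and tissue. The mice were Hos:HR-1, a hairless strain, all female, and the skin was taken at 21 weeks of age. From 9 weeks of age they were fed over 12 weeks on AIN-93G, which is a purified diet for rodents, or on AIN-93G to which fish scale collagen hydrolysate had been added at 2.0 g per 100 g. The study held 16 mice, and there are 4 arrays per diet, labelled as biological replicates. Mice were housed 4 to a cage, and the sources used here do not say whose arrays share a cage. The comparison asks which skin genes differ in expression between the diets.

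The deposited values are log2 expression values between 5.34 and 14.27 with unusually small differences between arrays. The median within-group SD of a tested gene was 1.94e-05, while the medians of the 8 arrays spread over 0.00397, which is 205 times that SD. Differences (collagen minus control) are therefore divided by the pooled within-group SD of the gene and called SD units, with the limma SE on the same scale, and they are no fold change of RNA. All 12 keratinocyte and all 10 fibroblast markers looked for were above the level filter. Control replicate 4 and collagen replicate 1 were low in skeletal muscle genes: the mean deviation of 14 muscle markers was -1.37 and -1.35 SD units in these 2 arrays and lay between 0.18 and 0.90 in the other 6. The same 2 arrays had the lowest medians over the tested genes, at -0.00213 and -0.00304 from the mean of the 8 medians. The other 6 medians lay between 0.00075 and 0.00094 from that mean. Gene by gene no such shift appeared. The median deviation of all tested genes from their own means lay between -0.18 and 0.17 SD units over the 8 arrays. Whole skin was measured, so fewer cells of a type and less RNA per cell cannot be told apart.

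No member passed the test for a diet difference, and the members nearest to it were lower on the collagen diet. Over all genes 0 of 12735 (0%) had an adjusted p below 0.05 in limma with Benjamini-Hochberg adjustment, with 528 lower and 154 higher at an unadjusted p below 0.05. Of the 31 members, 21 were lower and 10 higher on the values as deposited, but 3 were lower and 28 higher after median centring of the arrays over the tested genes, 28 and 3 after centring over all probe sets, and 17 and 5 after quantile normalization, with no direction in the remaining 9. Of all genes, 3.96% were lower after centring over the tested genes, 86.5% after centring over all probe sets and 66.9% after quantile normalization. The members' median as deposited was -0.39 SD units, where all genes tested had a median of -0.08 and 54.5% of them were lower. An unadjusted p below 0.05 was reached by 5 members, which is 16.1% of those tested, and all 5 were lower. Over all genes 4.15% were lower at that threshold and 1.21% higher. Since the list was made with earlier results of these data known, shares of members beside all genes are description and no test. The 5 members were *Gpx4*, *Gstm1*, *Prdx4*, *Sod1* and *Taldo1*. In 3 of the 31 (9.68%) all 4 collagen arrays lay below all 4 control arrays, against 2.53% of all genes, and no member had all its collagen arrays above, against 0.777% of all genes. The other 26 members lay between -1.64 and 0.90 SD units, with adjusted p between 0.944 and 0.999 in limma.

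**Figure D1:**
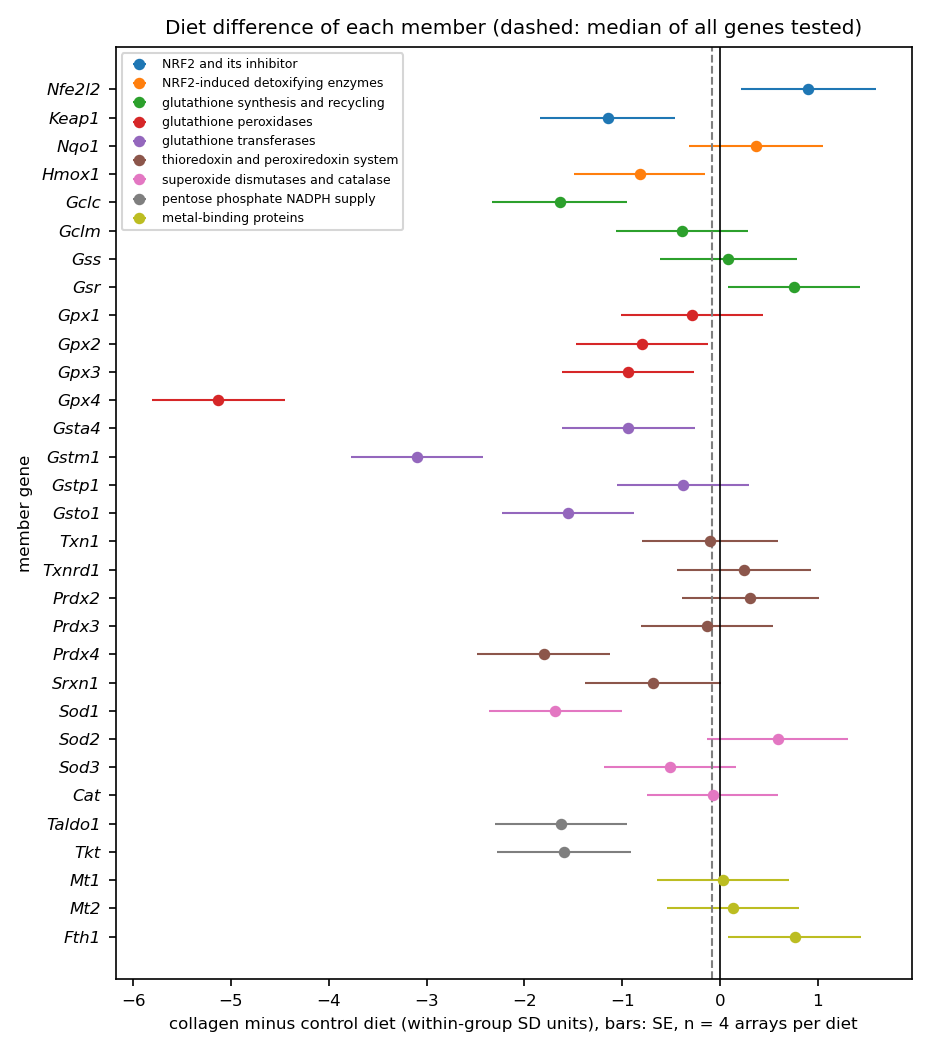
Difference between the diets for each of the 31 tested members, as collagen minus control diet in within-group SD units on the horizontal axis, with the gene on the vertical axis and colour by role. Points are fitted differences and bars the limma SE (n = 4 arrays per diet); the dashed line is the median of all genes tested at -0.08. *Gpx4* at -5.13 and *Gstm1* at -3.10 stand furthest from 0, and most other members lie between -2 and 1. Once arrays were median-centred over the tested genes 28 of the 31 were higher, where only 3.96% of all genes were lower.

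The genes of NRF2 and KEAP1 themselves did not pass the test. *Nfe2l2*, which encodes NRF2, differed by 0.90 ± 0.69 SD units, with collagen replicate 1 highest at 1.88 and control replicate 4 lowest at -1.55. *Keap1*, on probe set 1450746_at, stood at 0.58, 0.50, 1.33 and -0.11 SD units in control replicates 1 to 4 and at -2.16, -0.98, 0.04 and 0.80 in collagen replicates 1 to 4. Its groups overlapped, with 1 collagen array above 3 of the controls, and the difference was -1.15 ± 0.69 (SE, n = 4 per diet). The adjusted p was 0.999 for both genes in limma, while second probe sets differed by -0.02 ± 0.67 (*Nfe2l2*) and -0.11 ± 0.69 (*Keap1*). Collagen replicate 1 was both the array of highest *Nfe2l2* and that of lowest *Keap1* value. After centring over the tested genes both were higher on the collagen diet, and after centring over all probe sets both were lower. Among partners in the nucleus, the small MAF genes *Mafg*, *Mafk* and *Maff* differed by -0.52, -0.08 and -0.24 SD units and *Bach1*, a repressor at the same DNA elements, by -0.32, each with overlapping groups.

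The letters of the antioxidant response element core, TGACNNNGC on either strand, were looked for in the RefSeq promoter windows of the tested members (GRCm38.p6), which run from 250 bases before to 50 after a gene's start. Windows were at hand for 26 of the 31 tested members, and 6 of the 26 (23.1%) held the core, against 14.0% of all 27025 genes with a window. The sequences are shown because NRF2 binds antioxidant response elements, and the members were not listed by this element. Each is written 5′ to 3′ in the sense of the gene with the match in capitals, and a match on the other strand reads as its reverse complement. In *Gclm* the match overlaps a metal response element core, described with the metallothioneins.
*Nfe2l2*, chr2:75704885-75704913, minus strand: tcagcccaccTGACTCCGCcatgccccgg
*Gclm*, chr3:122245413-122245441, plus strand: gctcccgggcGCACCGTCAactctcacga
*Txnrd1*, chr10:82859104-82859132, plus strand: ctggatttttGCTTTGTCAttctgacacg
*Srxn1*, chr2:152105542-152105570, plus strand: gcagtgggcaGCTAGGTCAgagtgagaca
*Sod1*, chr16:90220696-90220724, plus strand: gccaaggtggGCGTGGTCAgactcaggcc
*Mt2*, chr8:94172529-94172557, plus strand: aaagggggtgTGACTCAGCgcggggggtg

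As deposited, 3 of these 6 members were lower on the collagen diet and 3 higher, and of the other 20 with a window 14 were lower and 6 higher. *Sod1* was the 1 member with a match among the 5 at an unadjusted p below 0.05. A match is a run of letters and not a site shown to bind NRF2, and elements further from the start than these windows reach were not searched.

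Quinone reductase and heme oxygenase are classical readouts of NRF2. *Nqo1*, the quinone reductase gene, stood between -0.48 and 0.20 SD units on the control diet and at -1.73, 0.40, 0.48 and 1.58 in collagen replicates 1 to 4, a difference of 0.37 ± 0.68. *Hmox1*, for inducible heme oxygenase, stood at 0.36, 0.36, -0.60 and 1.52 on control and at -1.89, 0.55, -0.65 and 0.35 on collagen replicates 1 to 4, a difference of -0.82 ± 0.67 (adjusted p = 0.999 for both in limma). The spread of the collagen arrays was the wider one in *Nqo1*, with collagen replicate 1 below and the other 3 above every control array. *Hmox1* had the largest within-group SD of the members, 0.00537 on the deposited scale, where the smallest was 4.83e-06 (*Gpx1*) and the median 3.11e-05. Without the 2 arrays low in muscle genes, which were its highest and lowest, *Hmox1* differed by 0.07.

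Glutathione is made in 2 steps from cysteine that the SLC7A11 transporter helps to bring in as cystine. *Gclc*, the catalytic subunit of the first and limiting enzyme, stood at 2.29, 0.16, 1.41 and -0.58 SD units on control and at -0.56, -1.39, -1.23 and -0.09 on collagen replicates 1 to 4. Control replicate 4 was level with collagen replicate 1. Its difference of -1.64 ± 0.69 SD units had an unadjusted p of 0.0520 and an adjusted p of 0.944 in limma, and its second probe set differed by -0.69 ± 0.69. Without control replicate 4 the difference was -2.56 SD units with an adjusted p of 0.786.

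*Gclm*, the modifier subunit, differed by -0.39 ± 0.67 SD units, *Gss*, which completes glutathione, by 0.09 ± 0.70 and *Gsr*, which reduces oxidised glutathione with NADPH, by 0.76 ± 0.67. Their second probe sets gave -1.42 ± 0.68 for *Gclm*, 0.14 ± 0.67 for *Gss* and 1.11 ± 0.67 for *Gsr*. Groups overlapped in all 3 genes, with an adjusted p of 0.999 in limma. The 4 tested genes of this role were lower in 2 and higher in 2 as deposited, lower in 3 after quantile normalization or centring over all probe sets, and higher in all 4 after centring over the tested genes. *Slc7a11*, left out of the test for its low level, stood between -1.16 and 2.14 SD units over the 8 arrays, with a difference of 0.85 ± 0.67.

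The glutathione peroxidases use glutathione to reduce peroxides, and *Gpx4* encodes the one that acts on lipid hydroperoxides inside membranes. Its probe set 1451695_a_at stood at 1.29, 4.01, 2.54 and 2.42 SD units around its 8-array mean in control replicates 1 to 4, and at -2.97, -2.97, -3.05 and -1.27 in collagen replicates 1 to 4. The 2 diets did not overlap, and collagen replicate 4 was the collagen array nearest to the controls. The difference was -5.13 ± 0.68 SD units (SE, n = 4 per diet), or -9.67e-05 on the deposited log2 scale (adjusted p = 0.278 in limma). Its unadjusted p stayed below 0.05 in each of 8 fits that left out 1 array, in which the difference ran from -6.43 to -4.65. It depended on the scaling, with 0.0164 SD units after median centring over the tested genes, -0.78 after centring over all probe sets and no direction after quantile normalization. The median of all genes was 0.0714 SD units after centring over the tested genes and -0.15 after centring over all probe sets. The centred values of the other members stand beside the same medians. Array medians spread over 0.00397 on the deposited scale, so centring adds shifts far larger than this difference. Centred values therefore cannot show whether *Gpx4* or another member differs between the diets. A further probe set of the gene, 1456193_x_at, gave -1.21 ± 0.76 SD units with overlapping groups, a difference of the same sign that did not reach an unadjusted p of 0.05 (0.158 in limma over probe sets).

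The other peroxidases differed less. *Gpx1*, the cytosolic enzyme, differed by -0.29 ± 0.72 SD units, *Gpx2*, an epithelial form, by -0.80 ± 0.67 and *Gpx3*, the secreted form of plasma and extracellular fluid, by -0.94 ± 0.67. The groups overlapped in all 3, and the adjusted p was 0.999 in limma. In *Gpx3* the lowest arrays were collagen replicates 1 and 4, at -1.40 and -1.42, and collagen replicate 3 stood at 1.02 beside control replicate 3 at 1.39. All 4 peroxidases were lower as deposited and after median centring over all probe sets, whereas after centring over the tested genes 1 was lower and 3 higher, and after quantile normalization 1 was lower, 1 higher and 2 had no direction.

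Glutathione transferases join glutathione to electrophiles. *Gstm1*, of the mu class, stood at -0.04, 2.30, 2.03 and 1.91 SD units in control replicates 1 to 4 on probe set 1448330_at and at -1.16, -2.93, -1.07 and -1.04 in collagen replicates 1 to 4. Control replicate 1 was close to the collagen arrays and collagen replicate 2 was the lowest, and the diets did not overlap. The difference was -3.10 ± 0.68 SD units (SE, n = 4 per diet), with an adjusted p of 0.606 in limma and a range of -5.02 to -2.75 when 1 array was left out, where its unadjusted p stayed below 0.05 in 8 of 8 fits. It was 0.00673 SD units after centring over the tested genes and -0.83 after centring over all probe sets, and had no direction after quantile normalization. All 3 further probe sets of the gene were lower as well: 1416416_x_at by -3.21 ± 0.68 and 1425627_x_at by -2.85 ± 0.91, both without overlap, and 1425626_at by -1.19 ± 0.77 with overlap. Probe sets whose name ends in x_at hold probes that can match other sequences, and the mu-class genes lie close to each other in sequence, so signal of a relative cannot be told apart there. The relatives were *Gstm2* at -0.52, *Gstm3* at -0.58, *Gstm4* at -0.03, *Gstm5* at -1.52 and *Gstm7* at 0.90 SD units, none at an unadjusted p below 0.05.

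Among the other transferases *Gsto1*, of the omega class, differed by -1.55 ± 0.67 SD units with an adjusted p of 0.955 in limma, and its second probe set by -0.12 ± 0.68. *Gsta4*, which conjugates aldehydes from lipid peroxidation, differed by -0.94 ± 0.68 and *Gstp1*, of the pi class, by -0.38 ± 0.67, both with overlapping groups. The 4 transferases were lower as deposited and after centring over all probe sets, while 3 were higher after centring over the tested genes and 1 was lower, 1 higher and 2 without direction after quantile normalization.

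Peroxiredoxins reduce peroxides through a cysteine that thioredoxin restores. *Prdx4*, the form of the secretory pathway, stood at 2.36, 0.02, 0.82 and 0.41 SD units on control and at -1.45, -0.37, -1.96 and 0.17 on collagen replicates 1 to 4. Collagen replicate 4 was above control replicate 2, so the groups overlapped. The difference was -1.80 ± 0.68 SD units (SE, n = 4 per diet), with an adjusted p of 0.902 in limma; its unadjusted p was below 0.05 in 4 of 8 fits with 1 array left out and not without control replicates 1 or 3 or collagen replicates 1 or 3. It was 0.0307 SD units after centring over the tested genes, -0.62 after centring over all probe sets and -1.13 after quantile normalization. The 2 further probe sets that were tested went the other way, 1416166_a_at at 0.64 ± 0.67 and 1435731_x_at at 0.30 ± 0.68 SD units.

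The cytosolic *Prdx2* and the mitochondrial *Prdx3* differed by 0.31 ± 0.70 and -0.13 ± 0.67 SD units. *Txn1*, thioredoxin itself, differed by -0.10 ± 0.69, *Txnrd1*, the reductase that recharges it, by 0.24 ± 0.68, and *Srxn1*, which rescues over-oxidised peroxiredoxins, by -0.69 ± 0.70. These 5 genes had overlapping groups and an adjusted p of 0.999 in limma. The 6 members of the thioredoxin and peroxiredoxin system were lower in 4 and higher in 2 as deposited, lower in 4 and without direction in 2 after quantile normalization, higher in all 6 after centring over the tested genes and lower in all 6 after centring over all probe sets.

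Superoxide dismutases turn superoxide into hydrogen peroxide, which catalase splits. *Sod1*, the cytosolic copper and zinc enzyme, stood at -0.72, 1.80, 1.94 and 0.35 SD units on control and at -1.05, -1.65, -0.29 and -0.38 on collagen replicates 1 to 4. Control replicate 1 lay among the collagen arrays, and the other 3 control arrays lay above them. The difference was -1.68 ± 0.68 SD units (SE, n = 4 per diet) with an adjusted p of 0.929 in limma, and -2.96 without control replicate 1, the only 1 of the 8 arrays whose removal left its unadjusted p below 0.05. It was 0.0435 SD units after centring over the tested genes, -0.48 after centring over all probe sets and -1.18 after quantile normalization. Its 4 further probe sets lay between -0.60 and 0.20 SD units, 2 of them below 0. *Ccs*, the chaperone that loads copper into this enzyme, differed by -1.16 ± 0.74.

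*Sod2*, the mitochondrial manganese enzyme, differed by 0.59 ± 0.72 SD units, *Sod3*, the extracellular form, by -0.51 ± 0.67 and *Cat*, catalase, by -0.08 ± 0.67. The groups overlapped in all 3, and the adjusted p was 0.999 in limma. As deposited 3 of these 4 genes were lower, after quantile normalization 4 were lower, and after median centring 4 were higher over the tested genes and 4 lower over all probe sets. After quantile normalization *Sod2* differed by -1.75 SD units and was then the 1 member at an unadjusted p below 0.05.

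The pentose phosphate pathway supplies the NADPH with which glutathione and thioredoxin are reduced. *Taldo1*, transaldolase of its non-oxidative branch, stood at 0.54, 1.51, 0.72 and 0.49 SD units in control replicates 1 to 4 and at -0.0011, -2.80, -0.34 and -0.11 in collagen replicates 1 to 4. The diets did not overlap, but 3 of the 4 collagen arrays lay less than 1 SD unit below the lowest control array and collagen replicate 2 stood apart. The difference was -1.63 ± 0.68 SD units (SE, n = 4 per diet), with an adjusted p of 0.930 in limma. Its unadjusted p was 0.05 or above in 5 of 8 fits that left out 1 array: any of the 4 control arrays, or collagen replicate 3, with differences between -2.51 and -1.35 over the 8 fits. Centring gave 0.0261 SD units over the tested genes and -0.64 over all probe sets, and quantile normalization left no direction.

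*Tkt*, transketolase of the same branch, stood at 1.99, 0.07, 1.84 and -0.72 SD units on control and at -0.14, -0.82, -1.21 and -1.02 on collagen replicates 1 to 4. Control replicate 4 lay among the collagen arrays. Its difference was -1.59 ± 0.68 SD units with an adjusted p of 0.944 in limma. Both further probe sets were lower at an unadjusted p below 0.05: 1436605_at by -2.94 ± 0.69 without overlap (adjusted p = 0.589 in limma over probe sets) and 1451015_at by -1.68 ± 0.67 (0.886). Without control replicate 4 the difference of *Tkt* was -2.74 SD units, still with an adjusted p of 0.714. Among other genes of the pathway *Pgd*, which makes NADPH in the oxidative branch, differed by -1.71 ± 0.71 SD units with an unadjusted p below 0.05 and an adjusted p of 0.930 in limma. *Rpe* differed by 0.64 ± 0.69, and *Pgls* and *Rpia*, whose very small spread gives them a large moderated SE, by -2.15 ± 2.28 and -0.51 ± 1.93.

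The metallothioneins are small cysteine-rich proteins that bind zinc and copper. *Mt1* stood at -0.61, -0.78, -0.57 and 1.89 SD units on control and at -0.27, 0.66, -0.69 and 0.36 on collagen replicates 1 to 4. *Mt2* stood at -0.33, -0.93, -0.75 and 1.74 on control and at -0.31, 0.91, -0.66 and 0.33 on collagen replicates 1 to 4. In both genes control replicate 4 was the highest array, collagen replicate 2 the next and control replicate 2 the lowest. The second probe set of *Mt1*, 1451612_at, also had control replicate 4 highest at 1.81 and control replicate 2 lowest at -1.05.

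The differences were 0.03 ± 0.67 SD units for *Mt1* and 0.14 ± 0.67 for *Mt2*, each with an adjusted p of 0.999 in limma. Without control replicate 4 they were 1.40 and 1.28 SD units (adjusted p = 0.968 and 0.992). That array is one of the 2 low in muscle genes; the other, collagen replicate 1, was in the middle of both genes, and any part of muscle content in these values was not tested. *Mt4*, the metallothionein of stratified epithelium, differed by -0.44 ± 0.67, and *Mtf1*, the zinc-sensing factor that binds metal response elements, by 1.03 ± 0.80. *Fth1*, the heavy chain of the iron store ferritin, differed by 0.76 ± 0.68 on probe set 1427021_s_at and by 0.57 ± 0.70 on its second one. On the first its arrays stood at -1.34, -1.76, 0.82 and 0.75 SD units on control and at 0.02, 0.10, 0.60 and 0.81 on collagen replicates 1 to 4. Control replicates 1 and 2 were low and the other 2 controls level with the highest collagen arrays (adjusted p = 0.999 in limma). All 3 metal-binding members were higher as deposited and after centring over the tested genes, 2 of 3 after centring over all probe sets, and after quantile normalization 1 was lower and 2 had no direction.

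The core of the metal response element, searched as TGCACNC and TGCGCNC on either strand, occurred 3 times in the window of *Mt1* and 4 times in that of *Mt2*. Of 26 members with a window 6 held at least 1, the same 23.1%, against 28.2% of all genes with a window. All 7 matches of *Mt1* and *Mt2* are shown because these genes had the same highest, second and lowest array. Any part of these elements in that pattern was not tested. They are written 5′ to 3′ in the sense of the gene, with the match in capitals (RefSeq, GRCm38.p6).
*Mt1*, chr8:94179055-94179083, plus strand: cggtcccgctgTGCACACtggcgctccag
*Mt1*, chr8:94179080-94179108, plus strand: ccagggagctcTGCACTCcgcccgaaaag
*Mt1*, chr8:94179098-94179126, plus strand: cgcccgaaaagTGCGCTCggctctgccaa
*Mt2*, chr8:94172384-94172412, plus strand: agcatcgcctcTGCACCCggcccctcggg
*Mt2*, chr8:94172479-94172507, plus strand: cgcagacccttTGCGCTCagctcctttgc
*Mt2*, chr8:94172557-94172585, plus strand: ggggggagggcGTGTGCAggctctgtccc
*Mt2*, chr8:94172611-94172639, plus strand: gaattcgggtcGTGCGCAggcccaggggc

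**Figure D2:**
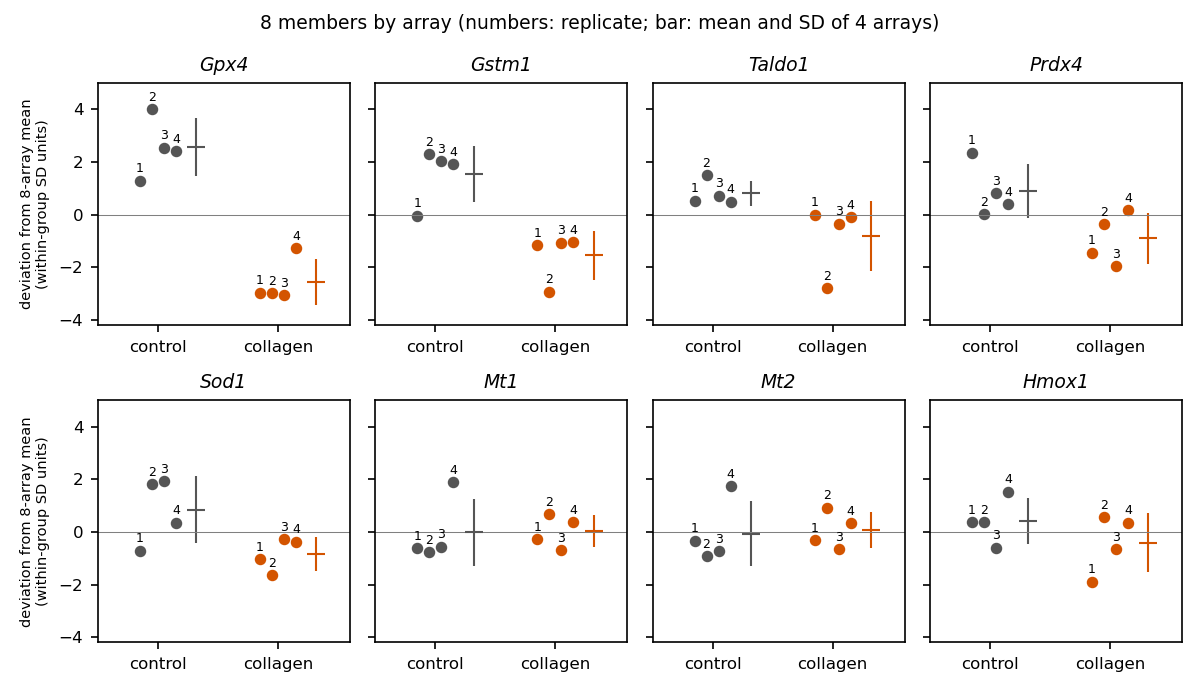
Values of 8 members in each array, as deviation from the gene's 8-array mean in within-group SD units, with diet on the horizontal axis, points numbered by replicate, and the mean and SD of 4 arrays as a bar. In *Gpx4*, *Gstm1* and *Taldo1* the 4 collagen arrays lie below the 4 control arrays, in *Prdx4* and *Sod1* the diets overlap, and in *Mt1*, *Mt2* and *Hmox1* control replicate 4 is the highest array.

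Over all members, 32 further probe sets of 21 genes were above a level filter set on the probe sets themselves (6.39 on the log2 scale, the lowest 30% of all probe sets, against 6.68 for genes), and 22 of them (68.8%) had the same sign as the one that represents the gene, against 58.8% over all genes. At an unadjusted p below 0.05 stood 4 of the 32, all lower, from *Gstm1* and *Tkt*, where 4.00% of all 31526 probe sets were lower and 1.57% higher at that threshold. Probe sets of a gene were read on the same arrays and are not replicates of the diet.

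**Figure D3:**
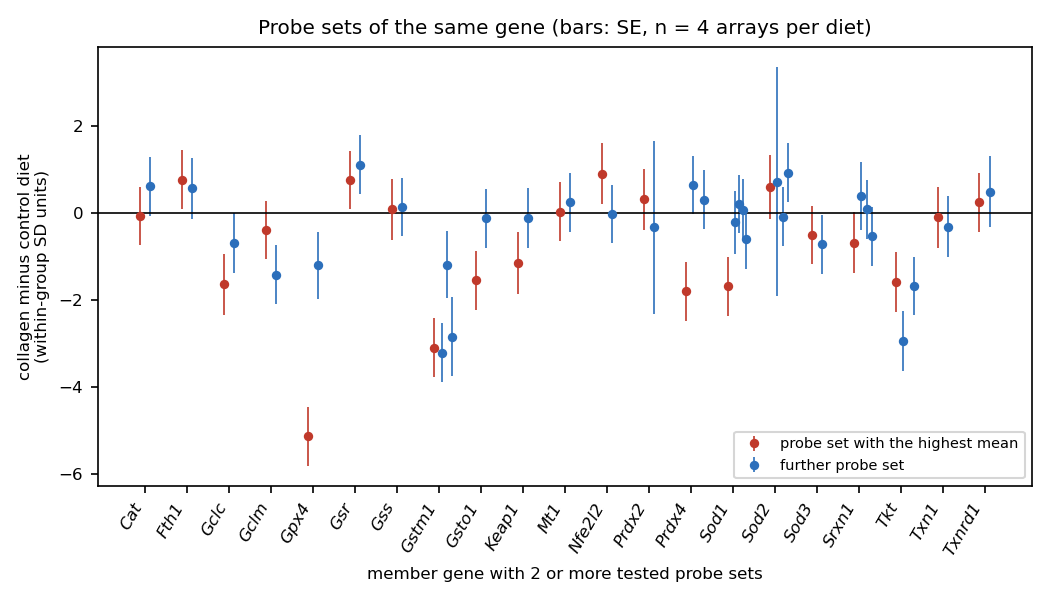
Difference between the diets for each tested probe set of the 21 members with 2 or more, in within-group SD units with SE bars (n = 4 arrays per diet). Red points are the probe sets that represent the gene and blue points the 32 further ones, of which 22 have the sign of the red point: those of *Gstm1* and *Tkt* all lie below 0, while those of *Prdx4* and *Sod1* lie on both sides.

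**Figure D4:**
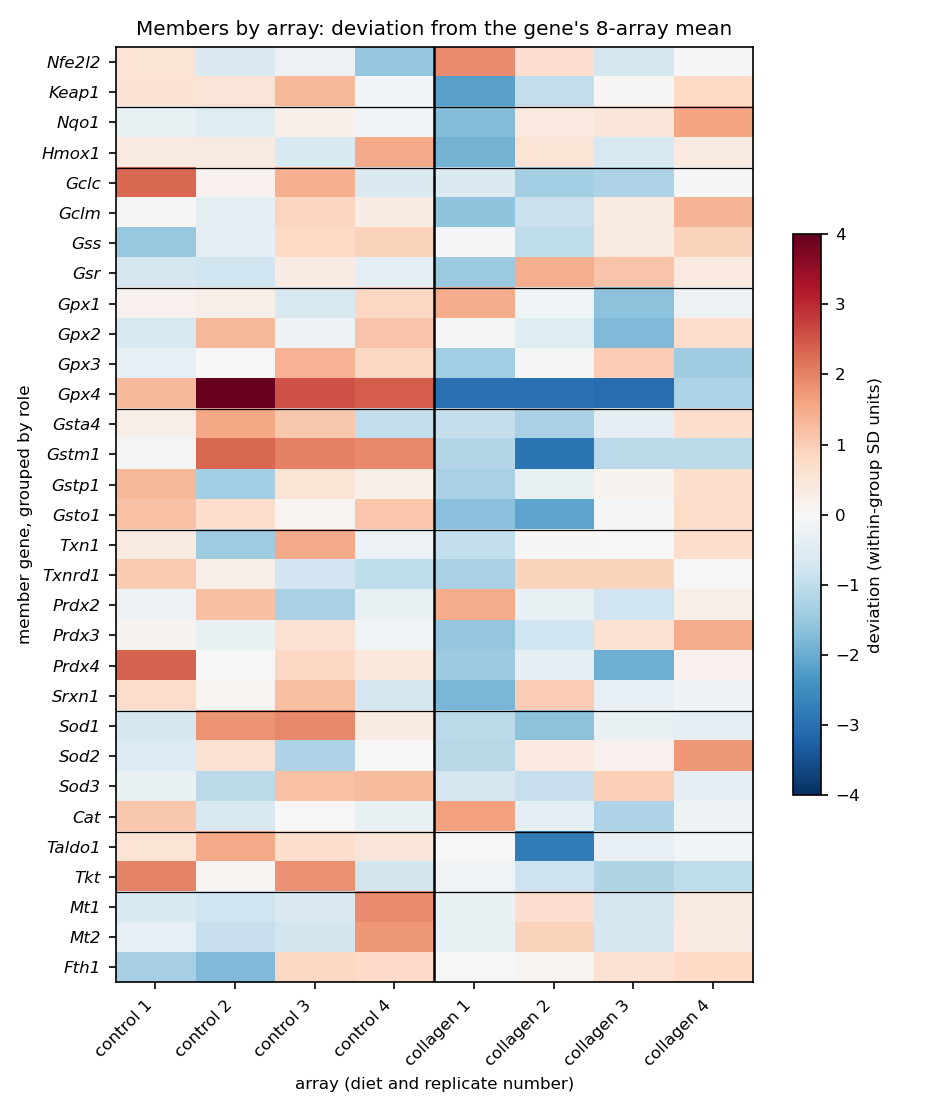
Deviation of each of the 31 tested members from its 8-array mean in within-group SD units (colour), with arrays on the horizontal axis and genes grouped by role on the vertical axis; horizontal lines separate the roles. *Gpx4* and *Gstm1* change colour at the diet boundary, marked by the vertical line, *Mt1* and *Mt2* are highest in control replicate 4, and the column of collagen replicate 1 is the lowest array in 8 members.

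Single arrays stood out across the members. Collagen replicate 1 was the lowest array in 8 of 31 members (25.8%), namely *Keap1*, *Nqo1*, *Hmox1*, *Gclm*, *Gsr*, *Txnrd1*, *Prdx3* and *Srxn1*. Over all genes it was lowest in 11.6%. Its median deviation over the members was -1.05 SD units, against 0.10 over all genes, and the medians of the other 7 arrays over the members lay between -0.37 and 0.72. Collagen replicate 3 was the highest array in 0 of the 31, against 10.2% of all genes. Without collagen replicate 1, *Nqo1* and *Gsr* were higher on the collagen diet by 2.13 and 2.65 SD units at an unadjusted p below 0.05, with adjusted p of 0.904 and 0.807 in limma. In that fit 156 of 12735 genes were higher at that threshold. Both genes were lowest in the array left out, so their difference rises by construction and is no result about the diet.

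Without both arrays low in muscle genes 17 members were lower and 14 higher, and their median was -0.19 SD units. *Gpx4* was then at -4.21 and *Gstm1* at -2.62 SD units, with adjusted p of 0.687 and 0.881 in limma, and *Gsr* at 2.36.

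A list of 99 other genes of glutathione, thioredoxin, metal and NADPH metabolism and of NRF2 control was counted too. Of 94 with a probe set of their own 89 were tested, of which 61 were lower and 28 higher as deposited (median -0.22 SD units). After quantile normalization 59 were lower and 21 higher, and after median centring 5 were lower over the tested genes and 82 over all probe sets. Of all genes 54.5% were lower as deposited, 66.9% after quantile normalization, and 3.96% and 86.5% after these centrings. An unadjusted p below 0.05 was reached by 5 (5.62%), all lower, against 4.15% of all genes. *Glrx5*, a mitochondrial glutaredoxin of iron-sulfur cluster assembly, differed by -4.70 ± 0.82 SD units with controls between 1.54 and 3.03 and collagen arrays between -4.06 and -1.10. Its adjusted p was 0.451 in limma. *Cbr1*, a carbonyl reductase, differed by -3.05 ± 0.73 and *Osgin1*, an oxidative stress response gene, by -2.82 ± 0.73, both without overlap, and *Atox1*, a copper chaperone, by -2.03 ± 0.67 with overlap. The fifth was *Pgd*.

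Among markers of other cells, those of dividing cells had the lowest median as deposited, -1.94 SD units, and none passed the test after adjustment. All 11 tested of 12 listed were lower, where 54.5% of all genes were, and 8 had an unadjusted p below 0.05, where 4.15% of all genes were lower at that threshold. Their mean deviation lay between 0.53 and 2.12 SD units in the control arrays and between -2.24 and -0.76 in the collagen arrays, without overlap. Their counts by direction depended on the scaling. After centring over the tested genes 2 were lower and 9 higher, where 3.96% of all genes were lower. Their median was then 0.02 SD units, against 0.07 over all genes. After centring over all probe sets 11 were lower and 0 higher (86.5% of all genes lower), and after quantile normalization 9 and 2 (66.9%). The part of these cells in the lower values of *Gpx4*, *Gstm1* and *Taldo1* was not tested. The scores of keratinocyte, fibroblast, adipocyte, macrophage and endothelial markers overlapped between the diets. All 14 skeletal muscle markers were higher as deposited, with a median of 0.22 SD units and 0 at an unadjusted p below 0.05. Their score was -1.37 to 0.29 on control and -1.35 to 0.90 on collagen. Of 10 hair follicle markers 9 were higher and 1 lower as deposited, 10 and 0 after centring over the tested genes, 7 and 3 after centring over all probe sets and 5 and 5 after quantile normalization. The shares of all genes that were lower were 54.5%, 3.96%, 86.5% and 66.9% in that order. As deposited their median was 1.24 SD units, and their score was -1.01 to 0.02 on control and -0.12 to 1.07 on collagen. At an unadjusted p below 0.05 in limma 3 were higher and 1 lower, where 1.21% of all genes were higher and 4.15% lower. Of 7 sebocyte markers 4 were lower and 3 higher as deposited and after centring over the tested genes, 6 and 1 after centring over all probe sets, and 2 and 3 after quantile normalization. As deposited their median was -0.99 SD units, and their score was -0.64 to 1.25 on control and -0.71 to -0.32 on collagen. At an unadjusted p below 0.05 in limma 2 were lower, where 4.15% of all genes were. The part of either cell type in the members' values was not tested. Red cell markers rest on 2 of 9 genes tested.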

How the data were processed

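Dorsal skin RNA of 8 female mice, 4 per diet, was hybridised to a 3′ expression array. The authors deposited 1 log2 value per probe set and array (the scale was judged from the values); R 2.7.2 is the tool given, per the submitters' processing notes, and how probes were summarized and normalized is not stated in those sources. Precision is limited by the number of arrays. Of 45101 probe sets 64 were controls and left out. In the platform's annotation, possibly out of date, 34945 name 1 symbol, 932 several and 9160 none. Each gene was represented by its probe set with the highest mean, and the lowest 30% of genes, or of probe sets in the fit over probe sets, were left out.

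The diets were compared over all 12735 genes, and over 31526 probe sets, with limma 3.58.1 in R 4.3.3 (eBayes with an intensity trend, two-sided, Benjamini-Hochberg adjustment, threshold 0.05; 6 residual and 0.61 prior degrees of freedom). The fit was tested on simulated data with independent normal noise for each gene. That cannot show how it behaves where genes vary together, as the muscle markers did here. With 4 arrays against 4 no exact two-sided permutation p can lie below 0.0286. Members and lists were chosen with earlier results of these data known. Values per array are given for members with an unadjusted p below 0.05 or non-overlapping groups and for the member of smallest p in each role; *Tkt*, *Nqo1*, *Mt1* and *Mt2*, and lone array values of other members, were added after their values were seen, and at most 8 genes of the wider list are named by smallest p below 0.05, the others for their role. Alternatives were other level filters, normalizations, variance models and probe set choices, a replicate block and leaving out arrays; centring over all probe sets was chosen after seeing the data.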

Additional observations from a re-analysis of the deposited data

Results flagged for a closer look

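Within each diet, 62 sets of 4 arrays (31 members) were looked at for an array whose gap to its nearest neighbour is more of the range than Dixon's 95% critical value for 4 samples. Chance gives this in about 5% of sets, or 3.1 of 62, and 5 were found. *Gpx4* in collagen replicate 4 stood at -1.27 SD units, where the other 3 collagen arrays lay between -3.05 and -2.97. *Gstm1* stood at -0.0427 in control replicate 1, with the other controls between 1.91 and 2.30, and at -2.93 in collagen replicate 2, with the other collagen arrays between -1.16 and -1.04. *Taldo1* in collagen replicate 2 stood at -2.80, against -0.34 to -0.0011. *Mt1* in control replicate 4 stood at 1.89, against -0.78 to -0.57 in the other controls.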

How the results depend on the processing

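The members' adjusted p stayed above 0.05 wherever they could be fitted: 25 of them after quantile normalization, of which 22 had a direction, and all 31 in each other setting. The count of genes passing was 1 in place of 0 with the lowest 50% left out or at an adjusted p below 0.10, and 0 to 1 with 1 array left out (1 without control replicate 1); each time that gene was *Plk1*, a mitotic kinase and no member. The 5 members at an unadjusted p below 0.05 became 7 with array weights, 6 without the intensity trend and 3 without moderation. With the mean of all probe sets they became 4, *Prdx4* and *Sod1* dropping out and *Tkt* entering. After quantile normalization 1 member stood at that threshold, *Sod2*, which was not among the 5. After median centring over the tested genes or over all probe sets there were 0. With 1 array left out there were 2 to 6 (3 without control replicate 1 or 2 or collagen replicate 3, and 2 without control replicate 3). Without collagen replicate 1 they included *Nqo1* and *Gsr*, which were higher. The replicate block left 2 of the 5 (*Gpx4* and *Gstm1*). The replicate numbers are not stated to pair the mice. Same-numbered arrays correlated at 0.0045, -0.018, 0.185 and -0.072, and 2 of 8 arrays correlated best with their own number. These correlations cannot show whether mice were paired, since pairing is a matter of the design. Array medians spread over 205 times the median SD of a gene, so centring adds a shift larger than most differences. Its sign depended on the probe sets used: 3.96% of genes were lower when centred over the tested genes and 86.5% over all probe sets. The genes themselves share no shift of that size, their median deviation per array being -0.18 to 0.17 SD units. The share of lower genes among those at an unadjusted p below 0.05 was 77.4% as deposited, 26.3% and 73.1% after these centrings and 78.2% after quantile normalization. Centring over the tested genes turned the sign of 18 members, centring over all probe sets of 7, and quantile normalization and leaving out the 2 arrays low in muscle genes of 6 each. Among the 9 members described in full by the naming rule, centring over the tested genes turned *Keap1* to 0.0626, *Gclc* to 0.0566, *Gpx4* to 0.0164, *Gstm1* to 0.00673, *Prdx4* to 0.0307, *Sod1* to 0.0435 and *Taldo1* to 0.0261 SD units and the members' median to 0.06. The median of all genes was 0.0714 SD units after that centring. Of the same 9, centring over all probe sets turned *Fth1* to -0.101, and leaving out those 2 arrays turned *Hmox1* to 0.0710. After quantile normalization *Gpx4*, *Gstm1* and *Taldo1* took no direction, their arrays or group means being equal.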
